A study of Arabidopsis thaliana with 6 samples.

Results

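EDS1 and its partners PAD4 and SAG101 are plant immune proteins with a lipase-like alpha/beta hydrolase fold. EDS1 pairs with either PAD4 or SAG101, and the pairs relay signals from intracellular immune receptors that carry a TIR domain to helper NLR receptors. In Arabidopsis leaves the pair of EDS1 and PAD4 is known to promote the accumulation of salicylic acid (SA), a phenolic defence hormone, and SA in turn is known to raise the transcripts of both genes. SAG101 was first described as a gene associated with leaf senescence.

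A set of 10 loci was selected by locus: the EDS1 copies AT3G48080 and AT3G48090 (EDS1), PAD4 (AT3G52430), SAG101 (AT5G14930), and a run of 6 alpha/beta hydrolase loci from AT5G24180 to AT5G24230. Of these 10 loci, 5 had a usable probe set. AT3G48080, SAG101, AT5G24210 and AT5G24230 were each read by 1 probe set, which the platform annotation assigns to that locus alone. PAD4 was read by a probe set that this annotation does not list and that the selection itself assigned to PAD4. None of the 10 loci appeared in an annotation entry that joins several genes. Probe sequences were not examined, so whether the probe set of AT3G48080 also reads transcript of the other EDS1 copy is unknown. EDS1, AT5G24180, AT5G24190, AT5G24200 and AT5G24220 were not analysed here.

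The SA group consisted of leaves of Arabidopsis thaliana, from plants between 3 and 4 weeks old, harvested 2 hours after a spray of 1 mM SA in 0.01% of the wetting agent Silwet. Leaves of the mock group came from plants of that age sprayed with 0.01% Silwet alone and harvested at the same interval. Both groups therefore received Silwet, and each had 3 biological replicates on 1 Affymetrix ATH1 array each, hence 6 arrays. The sources used here give neither the plant accession nor the number of plants behind a replicate, so p-values measure the spread between these samples only. The comparison asks which leaf transcripts differ after SA at this time.

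Signals are log2 values made by the authors with RMA, and a change is the SA mean minus the mock mean. Over 22746 probe sets without controls, limma called 334 (1.47%) at an adjusted p under 0.05, with 222 higher (0.976%) and 112 lower (0.492%) in SA. The median change over all probe sets was -0.011. With the replicate number as a block, 2365 probe sets were called (10.4%). Leaving out SA replicate 2, SA replicate 3 or mock replicate 3 ended every call on the array without the block (0 called, with 2940, 2666 and 3034 at an unadjusted p under 0.05), those of the genes below included. The leaf transcript of RCA, which encodes Rubisco activase, had log2 signals of 14.00 ± 0.10 in SA leaves and 13.99 ± 0.13 in mock leaves (SD, n = 3 each). PRK, which encodes the Calvin cycle enzyme phosphoribulokinase and was the other leaf marker measured, had 12.77 ± 0.16 in SA leaves and 13.03 ± 0.065 in mock leaves, a change of -0.25 that limma did not call (adjusted p = 0.408, and 0.170 with the block) and that was below 0 in all 3 replicate numbers, at -0.11, -0.35 and -0.31. In both treatments the arrays numbered 1 stood apart from the other 4: their lowest signal exceeded the highest of the others by 2.00 to 3.73 log2 units over the 6 probe sets of the dap spike-in control, a bacterial sequence.

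All 5 measured genes had a higher mean in SA leaves than in mock leaves, and in 4 of them, AT3G48080, PAD4, AT5G24210 and AT5G24230, the lowest SA array lay above the highest mock array. Over the whole array 8.86% of probe sets were separated in this direction. AT5G24210 rose and was the only 1 of the 5 that passed limma without the block, where 0.976% of all probe sets were called higher. The same 4 genes passed with the block, where 5.57% of all probe sets were called higher. SAG101 passed in neither fit. The median change of the 5 genes was 1.38 log2 units. The selection was made with earlier results of these data known, so these counts are a description only. Leaf samples are mixtures of cell types, so more cells of a type and more transcript per cell cannot be told apart.

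**Figure D1:**
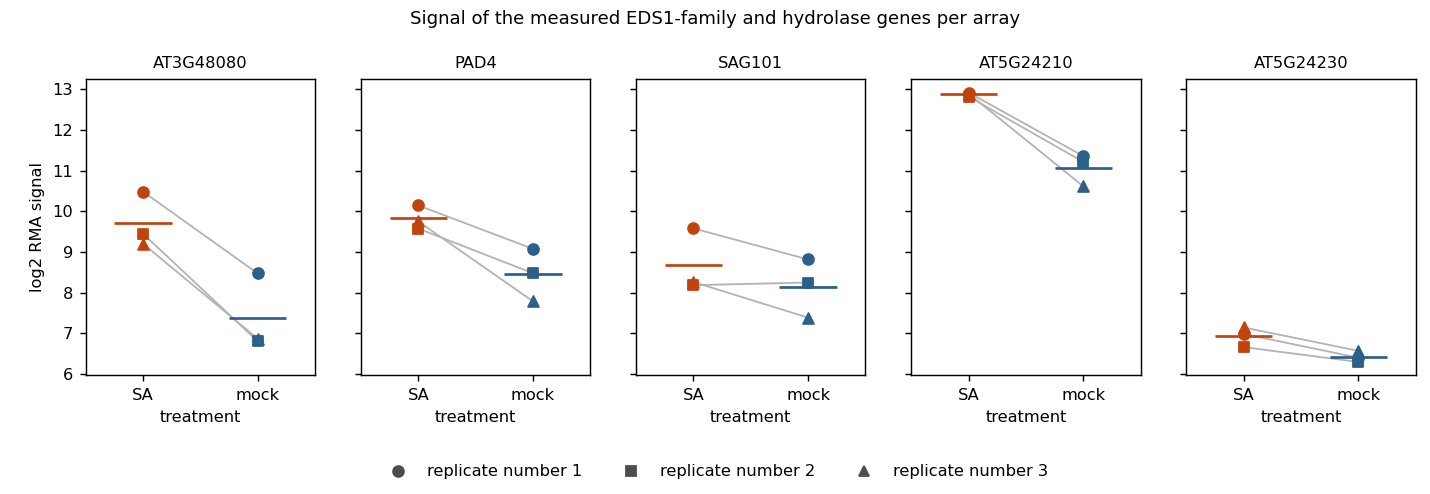
Log2 RMA signal (vertical axis) of the 5 measured genes in SA and mock leaves; each point is 1 array, its shape gives the replicate number, grey lines join arrays of the same number and horizontal bars are group means of 3 arrays. SA points lie above all mock points in every panel except that of SAG101, where SA replicates 2 and 3 lie among the mock values.

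AT3G48080, the EDS1 copy with a probe set, showed the largest change of the 5. Its log2 signals were 10.48, 9.45 and 9.20 in SA replicates 1, 2 and 3, against 8.47, 6.80 and 6.86 in mock replicates 1, 2 and 3. Replicate 1 was the highest array within each treatment, and the groups did not overlap. The group means were 9.71 ± 0.68 in SA leaves and 7.38 ± 0.95 in mock leaves (SD, n = 3 each).

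The change of AT3G48080 was 2.33 ± 0.54 log2 units (SE), a 5.03-fold higher signal with a 95% confidence interval from 2.03 to 12.5. This did not pass the test over the array (limma adjusted p = 0.110), although the unadjusted p was 0.00455. The differences within replicate numbers 1, 2 and 3 were close to each other, at 2.01, 2.65 and 2.33. With the replicate number as a block the standard error became 0.14 and the change passed (limma adjusted p = 0.00433).

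PAD4, the partner of EDS1 in basal resistance, had log2 signals of 10.14, 9.58 and 9.75 in SA replicates 1, 2 and 3, against 9.08, 8.48 and 7.79 in mock replicates 1, 2 and 3. The lowest SA array was above the highest mock array by less than the range within either group. The means were 9.82 ± 0.29 in SA leaves and 8.45 ± 0.65 in mock leaves (SD, n = 3 each).

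The change of PAD4 was 1.38 ± 0.34 log2 units, or 2.60-fold with a 95% confidence interval from 1.48 to 4.57. It did not pass without the block (limma adjusted p = 0.123) and passed with it (limma adjusted p = 0.0176). Within replicate numbers 1, 2 and 3 the differences were 1.07, 1.0997 and 1.97. The largest of them belonged to the number whose mock array was lowest.

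SAG101, the other partner of EDS1, had log2 signals of 9.58, 8.18 and 8.26 in SA replicates 1, 2 and 3, against 8.82, 8.25 and 7.38 in mock replicates 1, 2 and 3. Here the groups overlapped, and mock replicate 1 was above SA replicates 2 and 3. The means were 8.67 ± 0.78 in SA leaves and 8.15 ± 0.72 in mock leaves (SD, n = 3 each).

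The change of SAG101, 0.52 ± 0.50 log2 units, was within the spread between replicates in the fit without the block (limma adjusted p = 0.784). Its 95% confidence interval in that fit ran from 0.625-fold to 3.31-fold, which includes no change as well as the 2.60-fold of PAD4. With the block the interval was narrower and above 0, from 0.012 to 1.04 on the log2 scale. It overlapped the interval of PAD4 in that fit, from 0.87 to 1.89. That fit did not call SAG101 either (limma adjusted p = 0.185, unadjusted p = 0.0464). The differences within numbers 1, 2 and 3 were 0.76, -0.066 and 0.88, so replicate 2 showed no higher signal after SA. Without SA replicate 1 the change was 0.072, and without mock replicate 3 it was 0.14.

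**Figure D2:**
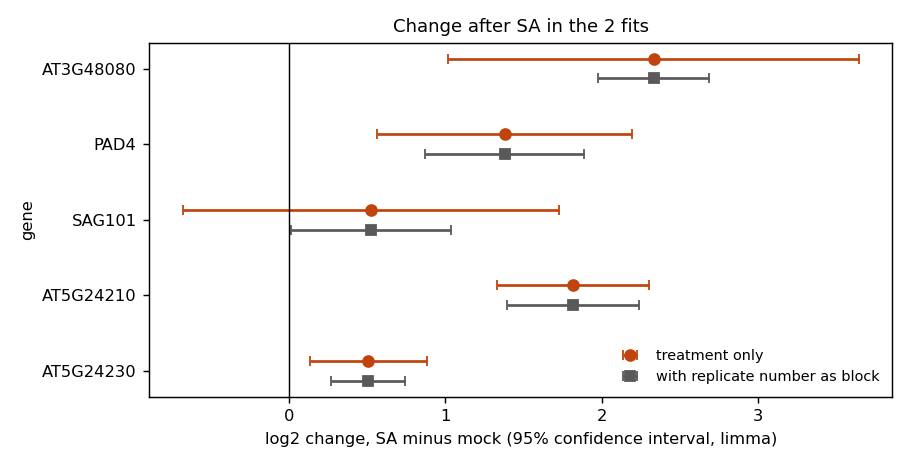
Log2 change, SA minus mock (horizontal axis), with 95% confidence intervals from limma for the fit with treatment only (circles) and with the replicate number as a block (squares). Intervals of AT3G48080, PAD4, AT5G24210 and AT5G24230 lie above 0 in both fits, and that of SAG101 spans 0 with treatment only.

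The hydrolase loci lie next to each other on chromosome 5 in the RefSeq gene order, with AT5G24215 between AT5G24210 and AT5G24220. AT5G24210 had log2 signals of 12.92, 12.82 and 12.89 in SA replicates 1, 2 and 3, against 11.36, 11.22 and 10.61 in mock replicates 1, 2 and 3. The SA arrays lay within a narrow band, while the mock arrays were lower and wider apart. The means were 12.88 ± 0.053 in SA leaves and 11.06 ± 0.39 in mock leaves (SD, n = 3 each).

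AT5G24210 rose by 1.82 ± 0.20 log2 units, which is 3.52-fold with a 95% confidence interval from 2.51 to 4.93 (limma adjusted p = 0.0274, and 0.00696 with the block). Within replicate numbers 1, 2 and 3 the differences were 1.56, 1.60 and 2.28. With 1 array left out the call held only without mock replicate 1 (limma adjusted p = 0.0491). In the other 5 such fits the adjusted p ran from 0.0512 (mock replicate 3 left out) to 0.132 (mock replicate 2 left out), and the change stayed between 1.59 and 1.89.

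AT5G24230 had log2 signals of 6.98, 6.66 and 7.14 in SA replicates 1, 2 and 3, against 6.40, 6.29 and 6.57 in mock replicates 1, 2 and 3. All SA arrays were above all mock arrays, by a small distance. The means were 6.93 ± 0.25 in SA leaves and 6.42 ± 0.14 in mock leaves (SD, n = 3 each). Its change was 0.51 ± 0.15 log2 units, or 1.42-fold, with a 95% confidence interval from 0.13 to 0.88 on the log2 scale. This passed only with the block (limma adjusted p = 0.0322, against 0.198 without it). The differences within numbers 1, 2 and 3 were 0.58, 0.37 and 0.57.

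**Figure D3:**
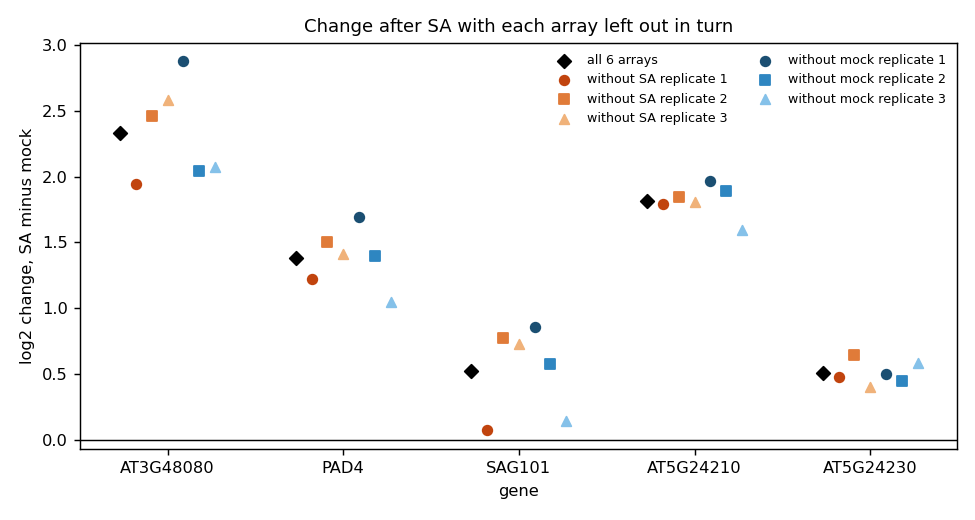
Log2 change, SA minus mock (vertical axis), of each gene over all 6 arrays (diamonds) and with each array left out in turn (other symbols). The change of SAG101 spreads from 0.072 to 0.86, while that of AT5G24210 stays between 1.59 and 1.96.

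The changes of the 5 genes were compared with each other over 10 pairs, using the difference between the signals of both genes in each array. In 5 pairs these differences did not overlap between SA and mock arrays, and each of the 5 gave the smallest p that an exact two-sided permutation test of 3 against 3 arrays allows, 0.1 (0.2 adjusted over the 10 pairs), so no pair could pass. The change of AT3G48080 exceeded that of SAG101 by 1.81 log2 units, with 1.25, 2.71 and 1.46 in numbers 1, 2 and 3. PAD4 exceeded SAG101 by 0.85, with 0.30, 1.17 and 1.09. Between the hydrolase loci, AT5G24210 exceeded AT5G24230 by 1.31, with 0.98, 1.24 and 1.71. The fourth separated pair was AT3G48080 over PAD4, at 0.95, and the fifth AT5G24210 over SAG101, for which the difference taken as SAG101 minus AT5G24210 was -1.29. The largest difference, AT3G48080 over AT5G24230 at 1.82, belonged to a pair whose arrays overlapped. No share over pairs of other probe sets was computed, so whether 5 of 10 is unusual is unknown.

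Arrays numbered 1 were high in the EDS1 copy and both partners. In SA leaves, replicate 1 exceeded the mean of replicates 2 and 3 by 1.16 in AT3G48080, 0.48 in PAD4 and 1.36 in SAG101. In mock leaves the same excess was 1.64 in AT3G48080, 0.94 in PAD4 and 1.00 in SAG101. The hydrolase loci differed less in this respect, with 0.063 in SA leaves and 0.44 in mock leaves for AT5G24210, and with 0.081 in SA leaves and -0.033 in mock leaves for AT5G24230. Deviations from the group means over the 6 arrays correlated by 0.82 between AT3G48080 and PAD4, by 0.85 between AT3G48080 and SAG101 and by 0.91 between PAD4 and SAG101. This was not limited to the EDS1 copy and its partners: AT5G24210 correlated by 0.91 with PAD4, 0.72 with SAG101 and 0.54 with AT3G48080, while the values of AT5G24230 with the other 4 ran from -0.31 to -0.035. These correlations are given as a description, since all genes read on an array share its RNA and hybridisation. The dap spike-in moved with the same arrays, and its part in these values was not tested. Over the arrays numbered 2 and 3 alone the changes were 2.49 in AT3G48080, 1.53 in PAD4, 0.41 in SAG101, 1.94 in AT5G24210 and 0.47 in AT5G24230, of which limma called 0, with 3 at an unadjusted p under 0.05. In that fit 11 of 22746 probe sets were called and 3268 had an unadjusted p under 0.05.

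Among other loci, the profiles most like each gene were ranked by Pearson correlation of signals over the 6 arrays, out of 13282 loci. For AT3G48080 these were AT3G59570, CYB-1 (AT5G38630), a cytochrome b561 gene, and AT3G09490, with r of 0.998, 0.997 and 0.995. Those closest to PAD4 were AT5G38340, AT5G66010 and AT1G12320, with r of 0.998, 0.997 and 0.997. SAG101 was most like AT1G33590, AT1G72890 and AT1G76360, with r of 0.996, 0.996 and 0.991. For AT5G24210 they were SGT1A (AT4G23570), a co-chaperone of immune receptors, AT2G03510 and SAE1A (AT4G24940), a subunit of the SUMO-activating enzyme, with r of 0.998, 0.995 and 0.995. AT5G24230 was closest to AT3G47800, AT3G10720 and AT3G57850, with r of 0.995, 0.991 and 0.991.

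With 6 arrays many loci reach a high r, so the named loci are not the only ones alike. Of the 13282 loci, an r of at least 0.95 was reached by 207 for AT3G48080, 117 for PAD4, 68 for SAG101, 125 for AT5G24210 and 58 for AT5G24230. The loci were picked for likeness over all 6 arrays, SA and mock together. Their changes are therefore not independent of the matched gene. Of the 15 loci named for likeness, SGT1A rose by 0.89 (limma adjusted p = 0.0370) and AT2G03510 by 0.83 (limma adjusted p = 0.0352). Both were picked for likeness to AT5G24210, and 0.976% of all probe sets were called higher. The other 13 did not pass, among them AT3G09490 with a change of 1.73 (limma adjusted p = 0.0691).

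Lists of genes that work with EDS1 or with SA held 83 genes, of which 15 had a probe set under a matched locus. Only such genes are called measured here and below. The platform annotation lists 14016 of the 22746 probe sets, so whether the array reads the other genes is unknown. Of these 15, limma called 3 higher and 0 lower without the block, and 8 higher and 0 lower with it, where 0.976% and 5.57% of all probe sets were called higher. Their median change was 0.67 log2 units, against -0.011 over all probe sets. The lists were chosen with earlier results of these data known, so these counts and medians are a description and not a test of the lists.

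TIR-type receptor genes, whose proteins act upstream of EDS1, supplied 6 measured genes of 19 listed, and their changes ran from 0.068 to 1.38 with a median of 0.64. Without the block limma called 0 of them, with 4 at an unadjusted p under 0.05 (14.4% of all probe sets), and with the block it called 3, all higher (5.57% of all probe sets). AT1G17600 had log2 signals of 8.36, 7.96 and 8.37 in SA replicates 1, 2 and 3, against 7.30, 6.49 and 6.75 in mock replicates 1, 2 and 3. Its change was 1.38 ± 0.23 (limma adjusted p = 0.0524, and 0.00744 with the block). AT4G12010 had a change of 1.07 ± 0.21 (limma adjusted p = 0.0753, and 0.00672 with the block).

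CSA1 (AT5G17880), a TIR-type receptor gene, had log2 signals of 10.06, 9.53 and 9.48 in SA replicates 1, 2 and 3, against 8.87, 8.75 and 8.80 in mock replicates 1, 2 and 3, so the groups did not overlap. Its change was 0.88 ± 0.17 (limma adjusted p = 0.0726, and 0.0172 with the block). Helper NLRs are a receptor class that acts downstream of EDS1. Of the 6 genes listed under that class only AT5G66890 was measured, and whether its product works as a helper was not examined. AT5G66890 had a change of 0.60 ± 0.27 with overlapping groups (limma adjusted p = 0.397). Its signals were low, with means of 6.09 ± 0.51 in SA leaves and 5.50 ± 0.22 in mock leaves (SD, n = 3 each).

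**Figure D4:**
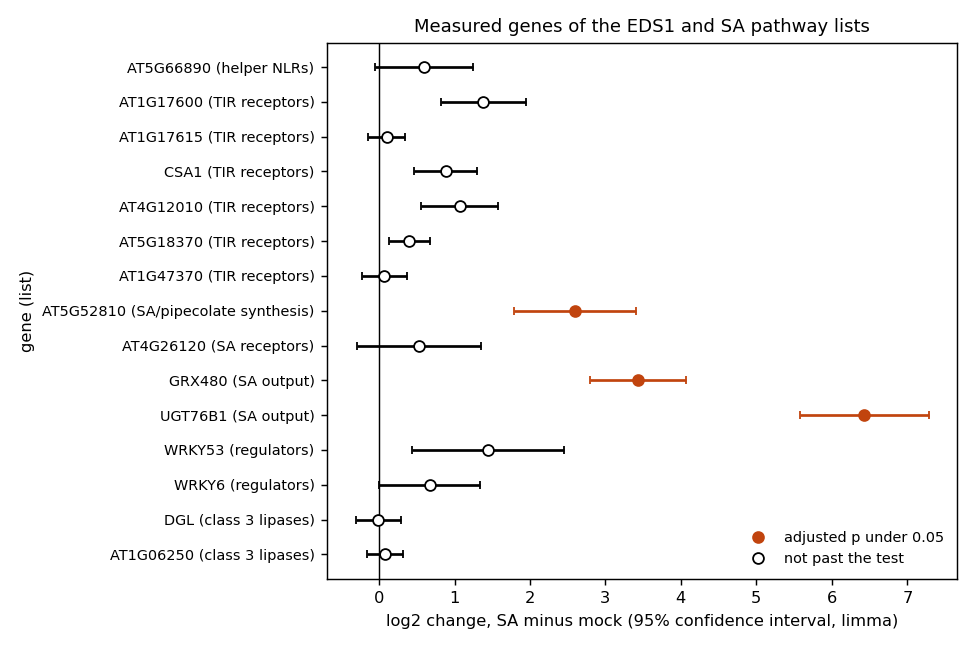
Log2 change, SA minus mock (horizontal axis), with 95% confidence intervals from limma for the 15 measured genes of the pathway lists; filled points passed the test without the block. The filled points are AT5G52810, GRX480 and UGT76B1, and the 6 TIR receptor genes lie between 0.068 and 1.38.

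On the SA side, the 3 genes called without the block were the ones with the largest changes. AT5G52810, from the list of SA and pipecolate synthesis, rose by 2.60 ± 0.34 (limma adjusted p = 0.0366). GRX480 (AT1G28480), a glutaredoxin induced by SA, and UGT76B1 (AT3G11340), an SA glucosyltransferase, rose by 3.43 ± 0.26 and 6.43 ± 0.35. AT4G26120, the only measured gene of the 13 listed as SA receptors and TGA partners, had a change of 0.53 ± 0.34 (limma adjusted p = 0.611).

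Of 15 listed regulators and senescence genes, 2 were measured, both WRKY transcription factor genes. WRKY53 (AT4G23810), known from leaf senescence, had a change of 1.45 ± 0.42 and WRKY6 (AT1G62300) of 0.67 ± 0.28. Both passed with the block only (limma adjusted p = 0.0252 for WRKY53 and 0.0321 for WRKY6, against 0.177 and 0.347 without it). With the block 5.57% of all probe sets were called higher.

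Lipases of class 3, which share the fold named in the opening, were represented by 2 probe sets with group means below 6, the limit of the filter on low signals, where a change could go undetected. DGL (AT1G05800), a galactolipase gene, had mean log2 signals of 4.75 ± 0.081 in SA leaves and 4.76 ± 0.18 in mock leaves, and AT1G06250 had 4.54 ± 0.089 in SA leaves and 4.46 ± 0.074 in mock leaves (SD, n = 3 each). Limma called neither in either fit, which at these signals says little about either gene, and 7 were listed. No listed hydrolase of SA methyl esters or fatty acids was analysed here.

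Chromosomal neighbours were read from the order of protein-coding genes in RefSeq, 5 on each side of each locus or run. Around AT3G48080 and EDS1, 4 neighbours were measured, with changes from -0.31 to -0.0049, and limma called 0 in either fit; the unadjusted p was under 0.05 in 0 of them without the block and in 1 with it. The adjacent AT3G48070 had mean log2 signals of 9.28 ± 0.12 in SA leaves and 9.50 ± 0.056 in mock leaves (SD, n = 3 each). Beside PAD4, 5 neighbours ran from 0.032 to 0.72. With the block 2 of them passed, AT3G52470 (limma adjusted p = 0.0343) and AT3G52480 (limma adjusted p = 0.0180). In that fit 5.57% of all probe sets were called higher. Neither passed without the block (limma adjusted p = 0.132 for AT3G52470 and 0.0591 for AT3G52480).

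The 7 measured neighbours of SAG101 ran from -0.57 to 0.18. With the block 2 were called lower, AT5G14940 and AT5G14970, where 1099 of 22746 probe sets were. Neither passed without the block (limma adjusted p = 0.554 for AT5G14940 and 0.324 for AT5G14970). Beside the hydrolase run 4 neighbours were measured, from -0.68 to 0.78. AT5G24260 rose by 0.78 ± 0.088 (limma adjusted p = 0.0278), 1 of the 4 called higher without the block, where 0.976% of all probe sets were. AT5G24240, between AT5G24230 and AT5G24260, had a change of -0.68 ± 0.51, and AT5G24165, upstream of the run, passed in the other direction with the block (change -0.66 ± 0.13, limma adjusted p = 0.0170). These neighbours were named after their values were seen.

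**Figure D5:**
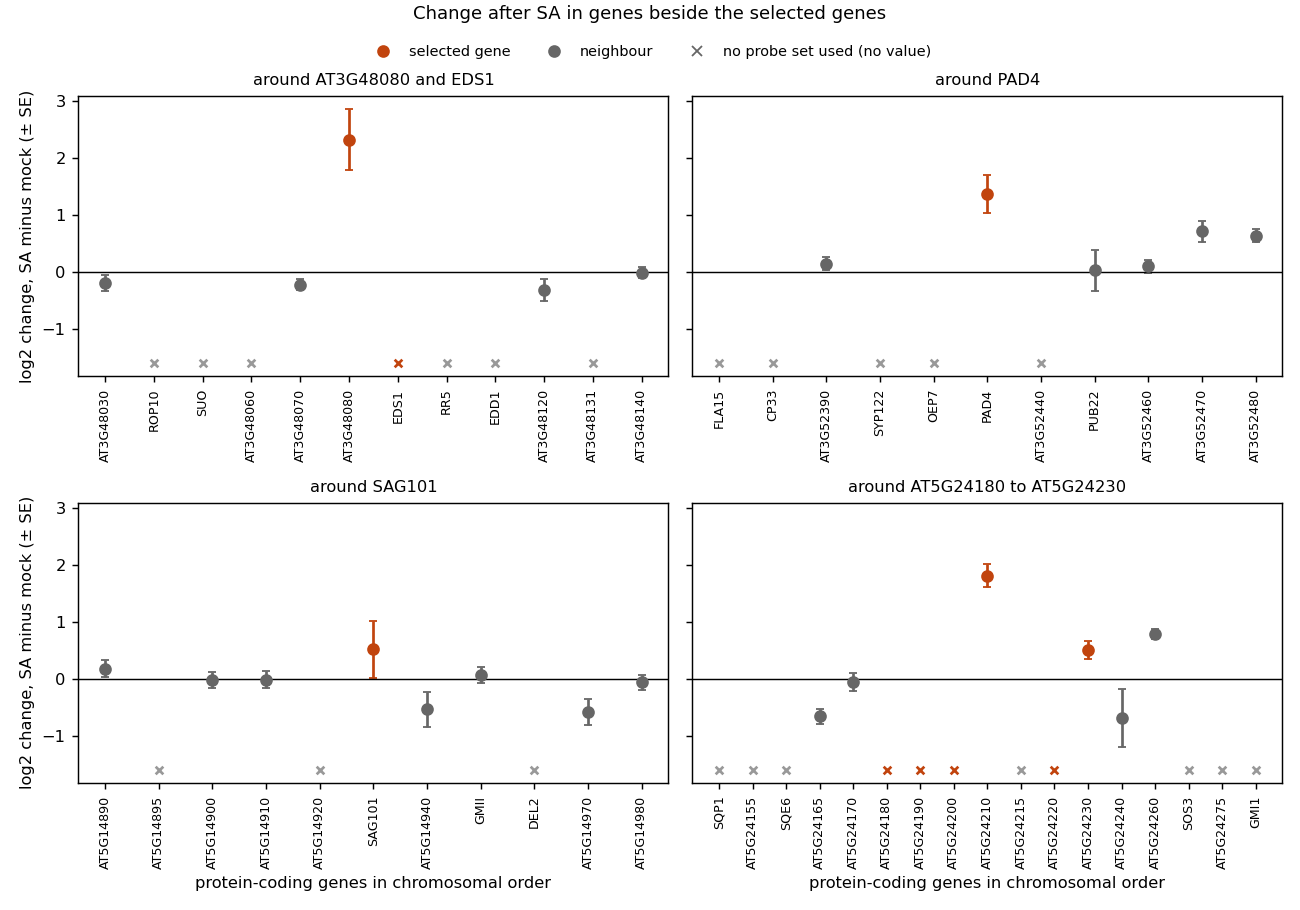
Log2 change, SA minus mock, with its standard error (vertical axis) for genes in chromosomal order around the selected loci; coloured points are selected genes, grey points are neighbours and crosses mark loci without a value. AT3G48080, at 2.33, stands beside neighbours between -0.31 and -0.0049.

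Markers of other organs and cell types were looked up beside these results. Of 26 listed markers, 6 were measured, and without the block limma called 0, with 1 at an unadjusted p under 0.05 (14.4% of all probe sets). Of the 4 root markers, 2 were measured, and their summed log2 signals were 12.72 to 14.11 in SA arrays and 11.05 to 12.03 in mock arrays. PYK10 (AT3G09260), a beta-glucosidase gene of endoplasmic reticulum bodies, made up the difference, with 6.98 ± 0.71 in SA leaves and 5.33 ± 0.29 in mock leaves (SD, n = 3 each), and passed with the block (limma adjusted p = 0.0194). Its part in the results above was not tested. FMA of guard cells and TRY of trichomes had changes of -0.22 and -0.36. Markers of flower, seed and phloem were not analysed here.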

How the data were processed

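Total RNA from frozen leaves was extracted with phenol and chloroform and labelled as biotinylated cRNA, per the labels' protocols. The deposited values are log2 signals from RMA as run by the authors, which the submitters' processing notes name; the sources used here give neither its version nor its probe annotation. RMA corrects background, equalises distributions between arrays and summarises probes. A total of 64 control probe sets were left out. Of the other 22746, the platform annotation assigned 13513 to 1 gene and 503 to several; 13436 matched a locus of RefSeq TAIR10.1 through the gene identifier, giving 13286 loci by the highest mean probe set.

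The members and lists were chosen with earlier results of these data known. SA and mock were compared with limma 3.58.1 in R 4.3.3 (lmFit and eBayes, treatment as the only term), with calls at an adjusted p (Benjamini-Hochberg) under 0.05 over all 22746 probe sets. The script was checked on simulated data. Named genes were every measured member, the 3 smallest p of each list, all list genes past the test and the 3 most correlated loci per member. Loci with no symbol in RefSeq keep their locus name.

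The deviations of same-numbered arrays from their group means correlated by 0.75, 0.46 and 0.55 for numbers 1, 2 and 3. These values were above the limit of 0.1, so results that pair arrays by number are given beside the main ones. The main limma model and the exact tests left the arrays unpaired. The pairing comes from the values, not the labels. Precision is limited by the number of arrays, and no exact test of 3 against 3 arrays can go below 0.1.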

Additional observations from a re-analysis of the deposited data

How the results depend on the processing

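The direction of all 5 measured genes held under the 15 alternatives, but not all of these could move it. Both blocks, 1 probe set per locus, the filter on low signals and the variance trend leave the change itself as it was. Among the fits that could move it, the change of SAG101 fell to 0.072 without SA replicate 1. The replicate block gave 2365 probe sets and 4 of the 5 genes, and left SAG101 as the only uncalled one. Array weights gave 886 probe sets and 2 genes, AT5G24210 and AT3G48080. Adding 32 linear units gave 213 probe sets and a variance trend 204, of 22746 each. With 1 probe set per locus 217 of 13287 were called, and with the filter on low signals 407 of 16176. Each of these fits called 1 of the 5 genes. Fits without 1 array called 0 to 98 probe sets and 0 to 1 of the 5 genes. Chosen after seeing the data, a block for the arrays numbered 1 gave 1262 probe sets and 3 genes. Using only the arrays numbered 2 and 3 gave 11 and 0. Centring on medians gave 235 higher and 76 lower. The causes were not tested. Over the alternatives the adjusted p of AT5G24210 ran from 0.00696 to 0.132, that of AT3G48080 from 0.00433 to 0.360, of PAD4 from 0.0176 to 0.361 and of AT5G24230 from 0.0322 to 0.527. The files hold no detection calls, so the signal of AT5G24230 over background is unknown.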
